A study of Ovis aries with 6 samples.

Results

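The ZIC transcription factors are a family of zinc finger proteins, and the 4 described here, ZIC1, ZIC2, ZIC4 and ZIC5, were chosen by gene name from the 26067 features of the deposited tables. They were chosen with their values in both groups known, so their differences between the groups are given as a description and not as a test. Full-length cDNA was sequenced on an Oxford Nanopore instrument from 6 sheep samples labelled hypothalamus. HP stands for 3 small-tailed Han sheep, classed by the submitters as high in reproduction, and LP for 3 Wadi sheep, classed as low. All animals were described as healthy, and the sources used here give no age, sex or treatment for them. Breed and reproductive class cannot be told apart in this design.

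ZIC proteins bind DNA through a block of zinc fingers close to those of the GLI factors, the effectors of hedgehog signalling. In the mouse they act in closure of the neural tube, in patterning of the forebrain midline and in growth of the cerebellum, and Zic1 and Zic2 remain expressed in cerebellar granule neurons of the adult. ZIC2 is a holoprosencephaly gene in humans, and heterozygous loss of ZIC1 and ZIC4 together is known from Dandy-Walker malformation, a defect of the cerebellum. These genes lie as adjacent pairs in vertebrate genomes, ZIC1 beside ZIC4 and ZIC2 beside ZIC5.

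The libraries held between 1981644 and 2732911 counts. Columns of the tables and sample titles share a number but not a letter, so they were matched by that number, and every statement on HP and LP rests on that match. Defining genes of the hypothalamus, the labelled tissue, were almost absent. Of 15 such genes among the features, 0 had enough counts for a test, and their summed level was 0 to 1.51 CPM, counts scaled to the library total, in HP and 4.82 to 7.07 CPM in LP. GNRH1, KISS1, HCRT, NKX2-1, RAX and FEZF1 had no count in any library. Anterior pituitary markers summed to 49.0 to 141 CPM in HP, against 142300, 300100 and 47210 CPM in LP replicates 1, 2 and 3. All 11 tested markers were lower in HP, and 8 of 16 had no count there. Of 13078 genes put through the quasi-likelihood test of edgeR, 6693 (51.2%) passed at a Benjamini-Hochberg adjusted p of 0.05, 27.1% of the tested genes as higher in HP and 24.1% as lower. Higher calls were 52.9% of all calls, 63.0% when libraries were scaled by their totals alone, and 36.2% and 35.1% with the deposited TPM at a pseudocount of 1 and of 0.1, and the median log2 fold change of all tested genes moved with them, at 0.02, 0.27, -0.31 and -0.40. All 4 ZIC genes were higher in HP under each of these scalings.

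The 4 ZIC genes had 9227 counts in the HP libraries together and 370 counts in the LP libraries. They summed to 1091, 1316 and 1167 CPM of the library totals in HP replicates 1, 2 and 3, against 23.2, 0.413 and 159.5 CPM in LP replicates 1, 2 and 3. The HP libraries lay close together and all above the LP libraries, which spread widely among themselves. LP replicate 3 alone held 85.4% of the LP counts, and LP replicate 2 held 1 count. In anterior pituitary sums the order within LP was the reverse, with replicate 2 highest and replicate 3 lowest. In bulk tissue, fewer cells of a type and less RNA per cell cannot be told apart.

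ZIC1, a regulator of cerebellar and midline development, had 196, 235 and 259 counts in HP replicates 1, 2 and 3, against 6, 1 and 18 counts in LP replicates 1, 2 and 3. The groups did not overlap, and the lowest HP level was 8.32 times the highest LP level. ZIC1 averaged 82.6 ± 4.64 CPM in HP and 4.27 ± 4.69 CPM in LP (SD, n = 3 each, CPM scaled with TMM factors, the between-library scaling of edgeR). Its log2 fold change, HP minus LP, was 4.27, a fold of 19.3. Without LP replicate 3 the fold was 46.3.

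ZIC4, the neighbour of ZIC1, showed the largest fold of the 4 genes. It had 473, 578 and 471 counts in HP, against 3, 0 and 19 counts in LP. ZIC4 averaged 183 ± 20.5 CPM in HP and 3.81 ± 5.45 CPM in LP (SD, n = 3 each). The lowest HP level was 15.9 times the highest LP level, the widest gap of the 4 genes. Its log2 fold change was 5.59, a fold of 48.2, and the fold was 230.3 without LP replicate 3.

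ZIC2, the family member tied to forebrain midline formation, took more counts than ZIC1, ZIC4 or ZIC5 in each HP library. It had 1262, 2111 and 1730 counts in HP, against 25, 0 and 130 counts in LP. ZIC2 averaged 607.5 ± 108 CPM in HP and 26.8 ± 36.9 CPM in LP (SD, n = 3 each). Every HP library was above every LP library, and HP replicate 2 stood highest. The log2 fold change was 4.51, a fold of 22.7, and the fold was 98.95 without LP replicate 3.

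ZIC5, the neighbour of ZIC2, is known from mouse for neural tube closure and neural crest development. It had 614, 673 and 625 counts in HP, against 19, 0 and 149 counts in LP. ZIC5 averaged 230.5 ± 18.1 CPM in HP and 29.2 ± 43.2 CPM in LP (SD, n = 3 each). The groups came closest here among the 4 genes, with the lowest HP level at 2.69 times the 78.9 CPM of LP replicate 3. The log2 fold change was 2.98, a fold of 7.91, and the fold was 49.0 without LP replicate 3.

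**Figure D1:**
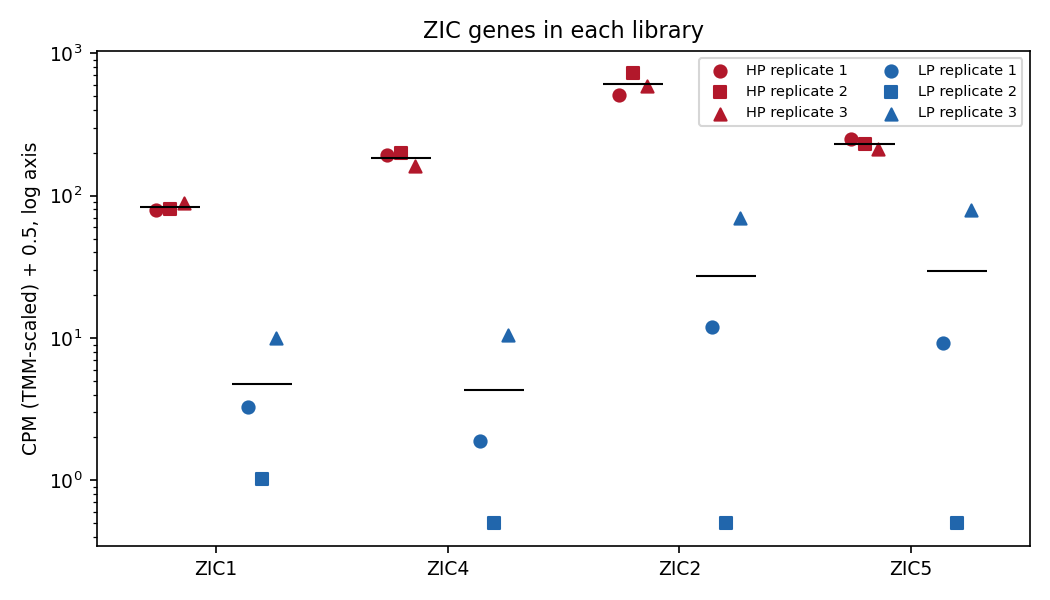
Levels of the 4 ZIC genes in each library, as TMM-scaled CPM plus 0.5 on a log axis, with HP in red left of LP in blue, a symbol for each replicate and a black line at the group mean. For each gene the 3 HP points lie together above all LP points, and the LP points run in the same order, with replicate 3 highest and replicate 2 lowest.

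All 4 chosen genes passed the filter on low counts. In the test across all genes, 3 of the 4 were called higher in HP, where 27.1% of all tested genes were, and ZIC5 was not. That count was 2 without HP replicate 1, 2 or 3 or LP replicate 1, and 4 without LP replicate 2 or 3. All 4 had HP values wholly above the LP values, which held for 33.9% of the tested genes. Because the genes were picked on this contrast, these counts support nothing further. Their median log2 fold change was 4.39, beside 0.02 over all genes tested. Of the tested genes, 1.44% had a larger log2 fold change than ZIC4, 2.90% than ZIC2, 3.40% than ZIC1 and 7.53% than ZIC5.

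**Figure D2:**
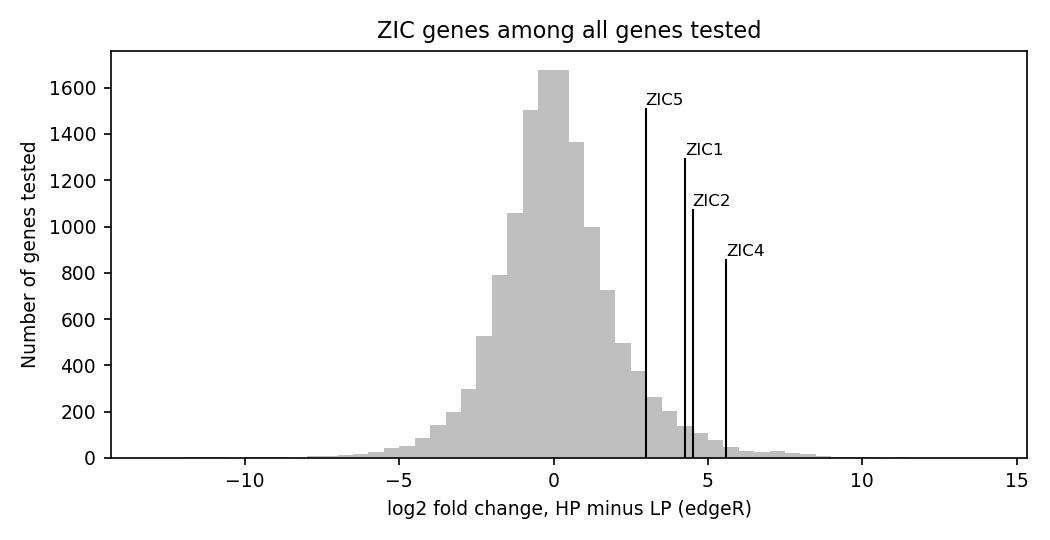
Log2 fold changes, HP minus LP, of all 13078 genes tested with edgeR, in grey bars that count genes, with black lines at the ZIC genes. The 4 genes lie on the right flank of the distribution, with ZIC5 at 2.98 nearest its centre and ZIC4 at 5.59 farthest out.

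Replicates differed little in HP and much in LP. On the log2 CPM scale the SD over the 3 HP libraries was 0.08 for ZIC1, 0.17 for ZIC4, 0.25 for ZIC2 and 0.11 for ZIC5. Over the 3 LP libraries it was 1.47 for ZIC1, 1.87 for ZIC4, 3.21 for ZIC2 and 3.29 for ZIC5. For ZIC2, ZIC4 and ZIC5 the log2 value of LP replicate 2 came only from the prior count of 2 added before taking logs. Their LP SDs therefore depend on that setting. All 4 genes had the same order within LP, with replicate 3 above replicate 1 and replicate 1 above replicate 2. That order was seen in 20.7% of all tested genes and in 20.8% of those called higher in HP. A count of 0 in LP replicate 2, as for ZIC2, ZIC4 and ZIC5, allows a level of up to 1.55 CPM (3 counts, on the TMM-scaled CPM used for single genes). This limit covers counting error only, since amplified reads are not independent molecules.

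The share of each gene within its adjacent pair varied between libraries. Among the counts of ZIC1 and ZIC4 together, ZIC1 made up 29.3% (95% Wilson interval 26.0 to 32.9), 28.9% (25.9 to 32.1) and 35.5% (32.1 to 39.0) in HP replicates 1, 2 and 3. In LP it made up 66.7% (35.4 to 87.9) of 9 counts in replicate 1 and 48.6% (33.5 to 64.1) of 37 counts in replicate 3, and LP replicate 2 held a single count, from ZIC1. The LP intervals are wide, and both overlap that of HP replicate 3 and lie above those of HP replicates 1 and 2. All these intervals cover counting error only and leave out the spread between sheep.

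Among the counts of ZIC2 and ZIC5 together, ZIC2 made up 67.3% (95% Wilson interval 65.1 to 69.4), 75.8% (74.2 to 77.4) and 73.5% (71.6 to 75.2) in HP replicates 1, 2 and 3. In LP it made up 56.8% (42.2 to 70.3) of 44 counts in replicate 1 and 46.6% (40.8 to 52.5) of 279 counts in replicate 3. ZIC5 had more counts than ZIC2 in LP replicate 3. The intervals of HP replicates 1 and 2 did not overlap each other either. The pair of ZIC1 and ZIC4 gave 26.3%, 22.6% and 23.7% of the counts of the 4 genes in HP replicates 1, 2 and 3, against 17.0% and 11.7% in LP replicates 1 and 3.

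The order of the genes differed between read counts and deposited TPM. The libraries were full-length cDNA, in which a read aims to cover a whole transcript, so counts are not expected to grow with length. The TPM order therefore rests on the implied lengths given below. By deposited TPM, which divides counts by length, ZIC4 was highest in HP at 548 ± 44.2 TPM, followed by ZIC2 at 59.5 ± 12.3, ZIC1 at 10.8 ± 2.46 and ZIC5 at 3.97 ± 0.277 TPM (SD, n = 3 each). No neighbours in that order overlapped over the HP libraries. By read counts, which are not per length, the HP order was ZIC2, ZIC5, ZIC4 and ZIC1, again without overlap. In LP the TPM were 9.67, 0 and 11.3 for ZIC4 and 2.39, 0 and 14.6 for ZIC2 in replicates 1, 2 and 3. ZIC4 was above ZIC2 in LP replicate 1 and below it in LP replicate 3, and over the LP libraries the ranges of all 4 genes overlapped with their neighbours.

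The length that the deposited TPM implies can be read from the counts divided by TPM, scaled here so that the median feature has 1. ZIC5 stood at 12.2 in each of the 5 libraries with counts, longer than 99.4% of features. ZIC4 stood at 0.0706, 0.0676 and 0.0724 in HP, with 9.94% of features lower, against 0.0565 and 0.287 in LP replicates 1 and 3. ZIC1 stood at 1.86, 1.31 and 1.83 in HP replicates 1, 2 and 3, against 3.18 in every LP library. ZIC2 stood at 2.10, 2.24 and 2.14 in HP replicates 1, 2 and 3, against 1.91 and 1.52 in LP replicates 1 and 3. ZIC1, ZIC2 and ZIC4 thus had an implied length that differed between libraries, whereas ZIC5 had the same value in each. Which transcript models took the counts is not in the gene tables, and a very small implied length raises the TPM of ZIC4.

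**Figure D3:**
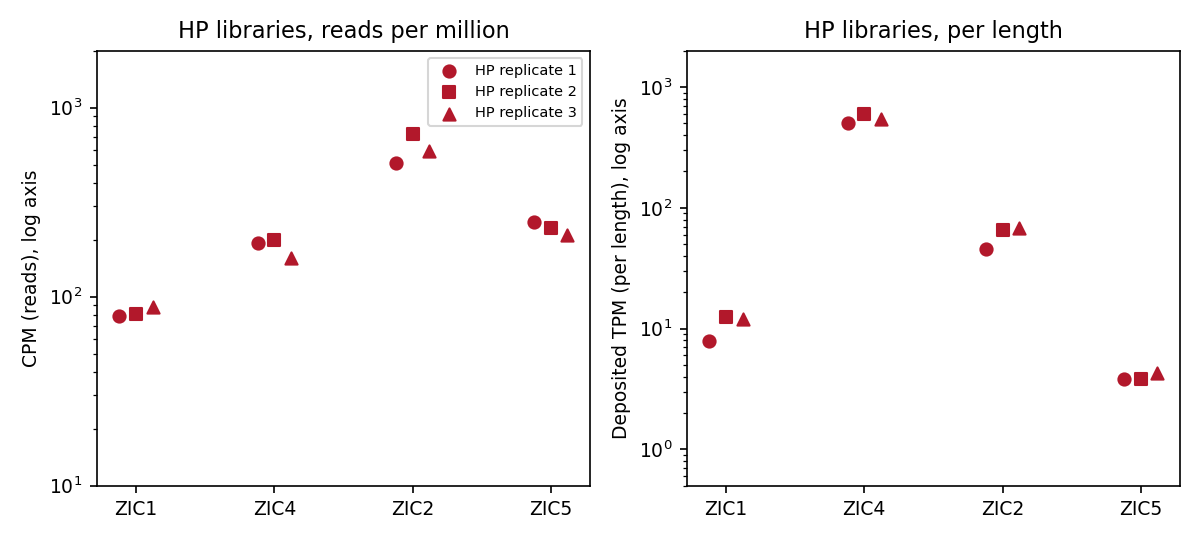
The 4 ZIC genes in the 3 HP libraries as TMM-scaled CPM, a share of reads (left), and as the authors' TPM, per length (right), both on log axes. ZIC2 is highest by reads at 510.7 to 725 CPM. ZIC4 is highest by deposited TPM, at 506 to 594, which rests on its very small implied length.

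The tested genes next to the ZIC pairs had differences that were smaller or ran the other way. Gene order was taken from RefSeq (assembly ARS-UI_Ramb_v3.0) without coordinates, because the build of the files is not given in the sources used here. On the outer side of ZIC1, AGTR1, an angiotensin receptor gene, had 5, 1 and 4 counts in HP, against 34, 33 and 26 counts in LP. AGTR1 was 12.3-fold lower in HP (edgeR adjusted p = 0.00164). On the outer side of ZIC4, PLSCR5 had 0, 0 and 3 counts in HP and 0, 0 and 4 counts in LP, too few for a test. CPB1, beyond AGTR1, had a single count over all libraries.

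The genes around ZIC5 and ZIC2 had counts in both groups. CLYBL, a mitochondrial citramalyl-CoA lyase gene beside ZIC5, had 44, 66 and 10 counts in HP and 24, 25 and 23 counts in LP. PCCA, which encodes a subunit of propionyl-CoA carboxylase and lies beside ZIC2, had 316, 360 and 264 counts in HP and 132, 109 and 192 counts in LP. Neither passed, with an edgeR adjusted p = 0.724 for CLYBL and adjusted p = 0.104 for PCCA, although PCCA passed when LP replicate 3 was left out (adjusted p = 0.0120). TM9SF2, the next gene beyond CLYBL, also did not pass with all libraries (edgeR adjusted p = 0.0689) and did pass when LP replicate 3 was left out (0.0459). GGACT, the next gene beyond PCCA, had 1, 1 and 0 counts in HP and 2, 5 and 6 counts in LP, too few for a test.

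**Figure D4:**
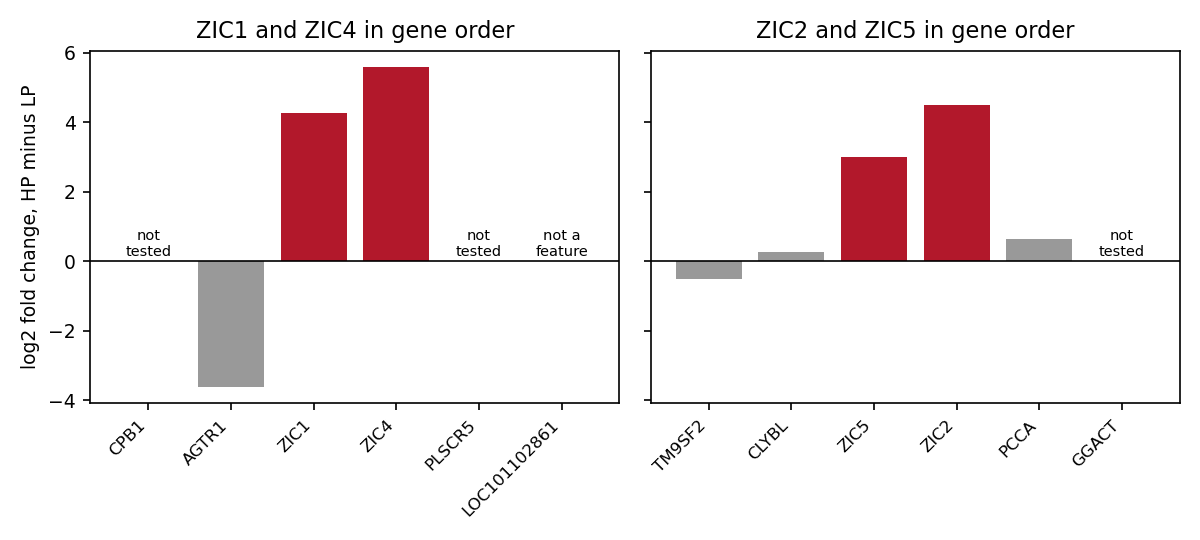
Log2 fold changes, HP minus LP, of the ZIC genes (red bars) and their neighbouring protein-coding genes (grey bars) in the order of the RefSeq table, with the ZIC1 and ZIC4 locus on the left and the ZIC2 and ZIC5 locus on the right. The ZIC bars reach 2.98 to 5.59, and the tested neighbours lie between -3.62 and 0.64.

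Several other genes had nearly the same profile over the 6 libraries. Likeness was measured as the Euclidean distance between log2 CPM values, centred on each gene's mean, and the mean profile of the 4 ZIC genes. The closest 10 named genes were CDR1, SAPCD2, NRN1, TIMP4, NPTX1, COL27A1, KCNA1, GABRA4, VAT1L and FAM131B, at distances of 0.84 (CDR1) to 1.75 (FAM131B), beside a median of 7.33 over the 13078 tested genes. CDR1, first described as an antigen in paraneoplastic cerebellar degeneration, had 388, 541 and 550 counts in HP, against 4, 0 and 28 counts in LP. Because the use of strand in counting is not stated, reads of CDR1 and of antisense RNA at its locus cannot be told apart.

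NRN1, which encodes the neurite growth protein neuritin, had 202, 212 and 307 counts in HP, against 7, 0 and 18 counts in LP. KCNA1, a voltage-gated potassium channel gene, had 135, 198 and 217 counts in HP, against 1, 0 and 18 counts in LP. GABRA4, a GABA-A receptor subunit gene, had 125, 170 and 174 counts in HP, against 1, 0 and 12 counts in LP. Each of these had the LP order of the ZIC genes, but they were picked for a like profile over these same libraries, so the shared order adds nothing. Among the 4 the nearest were ZIC2 and ZIC5, at a distance of 1.73, and no tested gene had a profile nearer to that of ZIC2 than ZIC5 did. By nearness to ZIC5, ZIC2 ranked 3 among the tested genes. ZIC1 and ZIC4 lay 2.06 apart, ZIC4 ranking 223 by nearness to ZIC1 and ZIC1 ranking 33 by nearness to ZIC4. Across the loci, ZIC2 and ZIC4 lay 2.14 apart, and ZIC4 ranked 3 by nearness to ZIC2. By nearness to ZIC1, ZIC5 ranked 598 at a distance of 2.615 and ZIC2 ranked 1088 at 3.19. ZIC4 and ZIC5 lay 2.66 apart.

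Relatives and partners of the ZIC proteins were described from lists drawn up with earlier results of these data known. Of the 6 GLI and GLIS genes, which share the zinc finger type of the ZIC proteins, 2 had enough counts for a test, 0 were higher in HP, and 1 was lower. Over all tested genes, 27.1% were higher and 24.1% lower. GLI3, a hedgehog effector, had 14, 15 and 9 counts in HP and 7, 4 and 16 counts in LP and did not pass (edgeR adjusted p = 0.984). GLIS3 had 14, 12 and 8 counts in HP, against 33, 37 and 13 counts in LP, and was 3.30-fold lower in HP (edgeR adjusted p = 0.0206). The GLIS3 call was lost without HP replicate 2 or 3 or LP replicate 1 or 2, with edgeR adjusted p of 0.0541 to 0.0855. GLI1 and GLI2 had at most 1 count in any library, and their levels could not be compared at this depth.

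Of 16 hedgehog pathway genes, 6 were tested, of which 4 were higher in HP, 1 was lower and 1 did not pass, beside 27.1% and 24.1% of all tested genes. Their median log2 fold change was 1.73, or 1.10 over the 8 genes tested without LP replicate 3, beside 0.02 over all genes tested. PTCH1, the hedgehog receptor, had 433, 415 and 408 counts in HP, against 47, 25 and 93 counts in LP, and was 5.44-fold higher in HP (edgeR adjusted p = 0.00498). Leaving out LP replicate 3 raised the PTCH1 fold to 8.51. The co-receptor gene CDON was 6.11-fold higher and DISP1, needed for hedgehog release, 3.30-fold higher, whereas GAS1, another co-receptor gene, was 3.78-fold lower in HP (edgeR adjusted p = 8.49e-04 for CDON, 0.00241 for DISP1 and 0.00681 for GAS1). SUFU, which restrains the GLI factors, was 3.33-fold higher in HP (edgeR adjusted p = 0.0142), and its call was lost without HP replicate 1 (0.0523) or HP replicate 2 (0.0513). SHH, the ligand, had 0, 1 and 1 counts in HP, against 0 in each LP library, and SMO, the signal transducer, had none in HP and 1, 0 and 2 counts in LP.

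Among 10 genes known from mouse or cell work as targets or partners of ZIC proteins, or as chromatin factors acting in cerebellar granule neurons, 6 were tested, and 3 were higher in HP, 1 was lower and 2 did not pass, beside 27.1% higher and 24.1% lower over all tested genes. Their median log2 fold change was 1.49, but it was 0.37 when HP replicate 1 was dropped, 0.64 when HP replicate 2 was, 0.95 when HP replicate 3 was and 0.59 when LP replicate 2 was, fits in which 7 genes of the list were tested. EPHB1, a guidance receptor gene that Zic2 drives in mouse retinal axons, had 715, 625 and 415 counts in HP, against 20, 40 and 23 counts in LP, and was 15.3-fold higher in HP (edgeR adjusted p = 8.23e-04). EPHB1 was lowest in LP replicate 1, whereas the ZIC genes were lowest in LP replicate 2. CHD7, a chromatin remodeller gene, was 5.21-fold higher in HP (edgeR adjusted p = 8.44e-04), and CHD4, another, was 1.93-fold lower, which did not hold when HP replicate 1 (edgeR adjusted p = 0.0718) or HP replicate 2 (0.0791) was left out. PAX3, a neural crest and dorsal neural tube gene, had 32, 24 and 15 counts in HP, against 1, 0 and 6 counts in LP, and was 7.11-fold higher in HP (edgeR adjusted p = 0.0263). Leaving out LP replicate 3 raised the PAX3 fold to 29.1, and the call was lost in edgeR fits that left out HP replicate 2 (adjusted p = 0.0739), LP replicate 1 (0.0813) or HP replicate 1. ATOH1, which Zic1 represses in the chick neural tube, had no count in any library.

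Of 12 holoprosencephaly genes, 6 were tested beside ZIC2, and 3 were higher in HP, namely CDON, DISP1 and PTCH1, and 2 were lower, again beside 27.1% higher and 24.1% lower over all tested genes. The median log2 fold change was 0.71, or -0.35 without LP replicate 3. SIX3, a forebrain and pituitary transcription factor gene, had 1, 0 and 0 counts in HP, against 241, 185 and 23 counts in LP. Its difference ran opposite to that of ZIC2. STAG2, a cohesin subunit gene, was at 36.7 ± 2.83 CPM in HP and 45.2 ± 5.03 CPM in LP (SD, n = 3 each) and did not pass (edgeR adjusted p = 0.257).

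Many marker genes of cerebellar cells were higher in HP, as the ZIC genes were, but within LP not all marker lists followed the order of the ZIC genes. Of 27 genes of the granule cell lineage, 21 were tested, and 19 were higher in HP, 0 lower, and 2, CNTN2 and NFIX, did not pass. Over all tested genes, 27.1% were higher and 24.1% lower. The median log2 fold change of the list was 3.68, or 4.76 without LP replicate 3, beside 0.02 over all genes tested. The list summed to 7757 to 10030 CPM in HP, against 481.5, 434 and 844 CPM in LP replicates 1, 2 and 3. BARHL2, UNCX and EN2, transcription factor genes, had 58 to 99, 25 to 31 and 159 to 198 counts in the HP libraries, against 0 in each LP library. BARHL1, at 4, 1 and 22 counts in HP, and EN1, at 3, 1 and 0 counts in HP, were also at 0 in LP, and ATOH1 was at 0 throughout. MEIS1, a granule cell transcription factor gene, averaged 275 ± 47.3 CPM in HP and 30.9 ± 22.5 CPM in LP (SD, n = 3 each). The 4 ZIC genes stood at 10.9%, 16.5% and 15.0% of the summed granule level in HP replicates 1, 2 and 3, against 4.82%, 0.0951% and 18.9% in LP replicates 1, 2 and 3. LP replicate 3 had a share above those of HP. The LP sums rest largely on genes that other neurons also express, such as the potassium channel gene KCND2, with 260, 515 and 244 counts in LP, and RELN, with 156, 127 and 572. CBLN1, a synaptic organiser gene highly expressed in granule cells, had 3967, 3950 and 3684 counts in HP, against 3, 1 and 28 counts in LP. SLC17A7, the vesicular glutamate transporter gene of granule cells, had 856, 879 and 949 counts in HP, against 2, 0 and 12 counts in LP. LP replicate 3 was highest and LP replicate 2 lowest within LP in CBLN1 and SLC17A7, as in the ZIC genes. Not all granule genes had that order. Of the 4 with the smallest p, CBLN3 (6, 5 and 9 counts in LP) and FAT2 (15, 11 and 28) had it. NEUROD1 (4, 3 and 2 counts in LP) and GABRA6 (1, 5 and 1) did not.

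Cerebellar interneurons also express ZIC1 in the mouse. Of 14 genes of that list, 5 were tested, and 3 were higher in HP, 0 lower, and 2 did not pass. Over all tested genes, 27.1% were higher and 24.1% lower. Without LP replicate 2, 5 of 6 tested genes of this list were called, 4 of them higher in HP. The list summed to 229 to 282.5 CPM in HP, against 16.6, 8.27 and 61.1 CPM in LP replicates 1, 2 and 3, the LP order of the ZIC genes. GRM2 had 8, 10 and 18 counts in HP, against 0 in each LP library, whereas PAX2, PTF1A and TFAP2A had at most 1 count in any library. PVALB, which encodes parvalbumin, had 402, 481 and 371 counts in HP, against 2, 1 and 7 counts in LP, and was 87.1-fold higher in HP (edgeR adjusted p = 5.27e-04). SLC6A5, a glycine transporter gene, had 49, 80 and 59 counts in HP, against 0, 3 and 0 counts in LP. NXPH1, which encodes a neurexin ligand, was 6.82-fold higher (edgeR adjusted p = 0.00588). Leaving out LP replicate 3 raised the fold of PVALB to 189.5 and that of NXPH1 to 11.9. Purkinje cell markers had 6 of 8 tested genes higher in HP and 0 lower, again beside 27.1% and 24.1% of all tested genes. They summed to 3670 to 5532 CPM in HP, against 1016, 643 and 626 CPM in LP replicates 1, 2 and 3. SLC1A6 had 15, 12 and 10 counts in HP, against 0 in LP. LP replicate 3, the LP library highest in the ZIC genes, was thus the lowest in Purkinje markers, and also in general neuron markers, which summed to 5164 to 5602 CPM in HP, against 691, 890 and 435.5 CPM in LP replicates 1, 2 and 3.

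Other markers moved with single LP libraries. Oligodendrocyte markers summed to 79.8 to 175 CPM in HP, against 7.44, 1.65 and 3297 CPM in LP replicates 1, 2 and 3, with 0 of 4 tested genes called. Astroglial markers summed to 516 to 762 CPM in HP, against 63.0, 37.2 and 733 CPM in LP replicates 1, 2 and 3, with 1 of 8 tested genes called. Over all tested genes, 51.2% were called. LP replicate 3, the LP library highest in each of the 4 ZIC genes, was thus also the LP library highest in glial markers. Choroid plexus markers summed to 114, 120.4 and 4537 CPM in HP replicates 1, 2 and 3, against 44.2, 9.51 and 7411 CPM in LP replicates 1, 2 and 3. In every library except LP replicate 2 those sums were mostly TTR, the transthyretin gene, which had 246, 304 and 11947 counts in HP, against 68, 11 and 14490 counts in LP. KCNJ13, another choroid plexus gene, had 15, 19 and 20 counts in HP, against 3, 2 and 80 counts in LP. HP replicate 3, high in TTR, had 1167 CPM of the 4 ZIC genes, between the other HP libraries.

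Meningeal cells, another known site of ZIC1 expression in the mouse, showed a different pattern. Of 15 meningeal genes among the features, 12 were tested, and 0 were higher in HP, 7 were lower and 5 did not pass. Over all tested genes, 27.1% were higher and 24.1% lower. Lower calls numbered 13 without LP replicate 2, and 3 and 4 without HP replicate 1 and HP replicate 2. Without LP replicate 3, 8 genes of the list were called, 1 of them as higher in HP. The list summed to 158 to 386 CPM in HP, against 1820, 285 and 1631 CPM in LP replicates 1, 2 and 3, and none of its genes was at 0 in either group. Much of the sum in LP replicate 1 came from COL1A2, DCN and COL3A1, with 1229, 869 and 617 counts there. Connective tissue outside the meninges also expresses these genes, so the sum is not specific to meninges. LP replicate 1, with the highest sum of this list, had 53 counts of the 4 ZIC genes. LP replicate 3 had 316 and LP replicate 2, with the lowest meningeal sum in LP, had 1. SLC6A13, a gene of the list, had 110, 313 and 94 counts in HP, against 6, 6 and 209 counts in LP, and did not pass (edgeR adjusted p = 0.676). The part of any of these cell types in the ZIC difference was not tested.

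**Figure D5:**
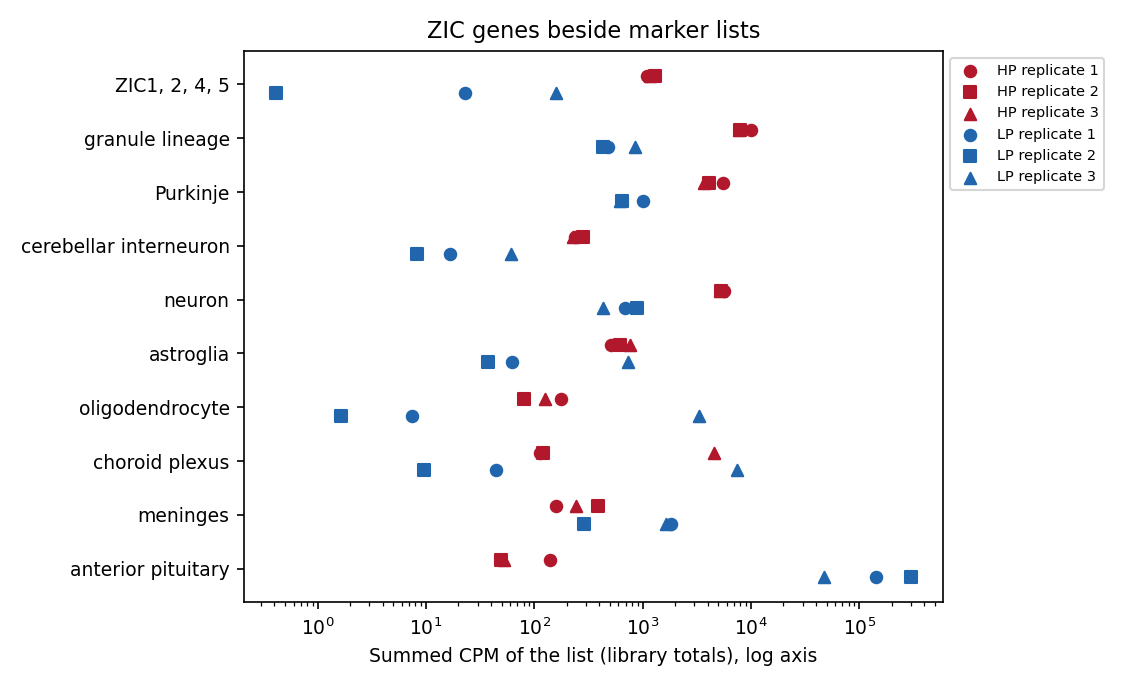
Summed CPM of the 4 ZIC genes and of marker lists in each library on a log axis, with HP in red above LP in blue and a symbol for each replicate. ZIC, granule lineage, Purkinje, cerebellar interneuron and neuron sums are higher in all HP than in all LP libraries. LP replicate 3 stands far above the other LP libraries in oligodendrocyte, astroglial and choroid plexus sums. In ZIC sums LP replicate 3 is the highest LP library, and LP replicate 2 lies far below the other LP libraries.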

How the data were processed

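Estimated counts and TPM per gene were deposited for 6 libraries. Reads were aligned with minimap2 2.17-r941, per the submitters' processing notes, while the quantifier, build, annotation, strand setting and filters are not stated there. Estimated counts, as deposited, were not scaled between libraries, and 24.0% to 29.8% of a library's values were not whole. They were rounded, which moved a total by at most 101 counts. The deposited TPM, scaled by the authors to a fixed total, are per length, since counts divided by TPM differed widely between features. With the median feature at 1, that ratio averaged 0.0702 for ZIC4 and 12.2 for ZIC5 in HP. Within a feature it was mostly steady over the libraries once a library factor was removed. Its coefficient of variation was under 5% in 67.2% of the 14803 features detected in all. Tests ran in R 4.3.3 with edgeR 4.0.16 (filterByExpr, TMM, quasi-likelihood test, two-sided, Benjamini-Hochberg adjustment over 13078 genes, threshold 0.05). The test was also run on simulated data with the same spread set for every gene and both groups. That setting does not cover the wide spread of the ZIC genes within LP. Alternatives used DESeq2 1.42.0, limma 3.58.1 (voom, and log2 of TPM plus a pseudocount), other filters and scalings, and each library left out. Log2 CPM used a prior count of 2. Reads confined to the conserved zinc fingers could have been assigned to another ZIC gene.

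The ZIC genes and the gene lists were chosen with earlier results of these data known. Named genes were the 4 ZIC genes, the 10 nearest profiles without LOC names, and up to 4 genes of each list with the smallest p. Neighbouring genes, and SUFU, STAG2, MEIS1, SHH, SMO, GLI1, GLI2, ATOH1 and other genes named only by counts, were added after their values were seen. Nothing in the labels says more than that the samples are separate sheep, so p-values measure the spread between these samples. Sequences of the ZIC genes are not used here.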

Additional observations from a re-analysis of the deposited data

How the results depend on the processing

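All 4 ZIC genes stayed higher in HP under each alternative run on them, namely library totals, DESeq2, TPM with either pseudocount, prior counts of 1 and 2, and each library left out. The log2 fold changes of ZIC1, ZIC2, ZIC4 and ZIC5, 4.27, 4.51, 5.59 and 2.98 in the edgeR fit, were 3.04, 3.99, 6.75 and 1.65 with TPM and a pseudocount of 1, and 4.66, 5.25, 7.94 and 3.22 with TPM and a pseudocount of 0.1, and the cause of these moves was not tested. Leaving out each library in turn gave 3.76 to 5.53 for ZIC1, 3.93 to 6.63 for ZIC2, 5.02 to 7.85 for ZIC4 and 2.42 to 5.62 for ZIC5, lowest without LP replicate 2 and highest without LP replicate 3. The number of genes called over the whole table was 4794 to 7913 with a library left out and 6511 to 7479 under the other alternatives. Without 1 library, 0 to 1 GLI and GLIS genes were called, 3 to 5 cerebellar interneuron genes (5 without LP replicate 2) and 3 to 13 meningeal genes (13 without LP replicate 2, and 3 and 4 when HP replicate 1 or HP replicate 2 was dropped). The holoprosencephaly list without LP replicate 3, an alternative added after seeing the data, had 6 called genes instead of 5. No paired analysis was possible because HP and LP libraries share no replicate number in the labels. Depth limits what a count of 0 can show to 1.10 to 1.51 CPM of the library total per library.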
